A study of Homo sapiens with 6 samples.

Results

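Described here are 10 genes that govern the step from G1 into S phase, namely the D cyclins CCND1, CCND2 and CCND3, their kinases CDK4 and CDK6, the CDK inhibitors CDKN1A, CDKN1B, CDKN2A and CDKN2B, and RB1. They were taken by name out of the 58174 genes of the data. SiHa is an established human cervical squamous carcinoma line that carries HPV16. Lipofectamine 3000 was used to bring GV230-BRCA1 (OV-BRCA1 group, 3 samples) or GV230 without the insert (NC group, 3 samples) into SiHa cells. The mRNA was sequenced after 48 h. Both groups had thus received plasmid DNA, and no untransfected cells are compared here. The study's methods call the samples of a group biological replicates, and p-values measure the spread between these samples.

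D cyclins bind and activate CDK4 and CDK6, which phosphorylate the RB protein, and phosphorylated RB releases E2F transcription factors that switch on the genes of S phase. The INK4 inhibitors, p16INK4a from CDKN2A and p15INK4b from CDKN2B, bind CDK4 and CDK6 directly, whereas the CIP/KIP inhibitors, p21 from CDKN1A and p27 from CDKN1B, bind complexes of cyclins and CDKs. In cells with HPV16 the viral E7 protein binds RB and such cells are known for much p16INK4a and little cyclin D1. Viral transcripts were not analysed here, and the data hold mRNA levels only, not protein or phosphorylation.

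Levels are given as FPKM, the fragments of a transcript divided by its length and by the fragments of the sample, summed over the transcripts of a gene. This scale is per length, so genes can be compared with each other. Values are listed in the order of samples 1, 2 and 3 of a group. The groups were compared with limma on log2(FPKM + 1), a scale that understates the change of low genes, and a gene was called at a Benjamini-Hochberg adjusted p-value below 0.05 over the 16321 genes that reached 0.5 FPKM in 3 or more samples. Called genes with an absolute log2 fold change above 1 are named DEGs. The depth, estimated from the step between the lowest values, was 13700000 to 16170000 fragments per OV-BRCA1 sample and 15660000 to 19220000 per NC sample. BRCA1, the gene on the plasmid, stood at 37.1 ± 3.18 FPKM with the BRCA1 plasmid against 18.9 ± 3.56 FPKM with the empty plasmid (SD, n = 3 each), and the samples did not overlap.

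Of the 10 genes, 8 entered the test and 3 of them were called, CCND1 and CDKN1A higher and CDKN2B lower in the OV-BRCA1 group. Over all genes tested 35.3% were called, 16.4% higher and 18.9% lower (2674 and 3090 genes), so 3 of 8 is a share near that of all genes. CCND1 was the only DEG among them, where 3.99% of the tested genes were DEGs, 2.89% higher and 1.1% lower. In the same 3 of the 8 tested genes all samples of one group lay above all samples of the other, and this held for 50.8% of all genes tested. It also held for CDK6, which was higher in the OV-BRCA1 group and did not enter the test. In bulk RNA, fewer cells that express a gene and less RNA per cell cannot be told apart. CCND2 and CDK6 did not reach the level needed for the test.

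**Figure D1:**
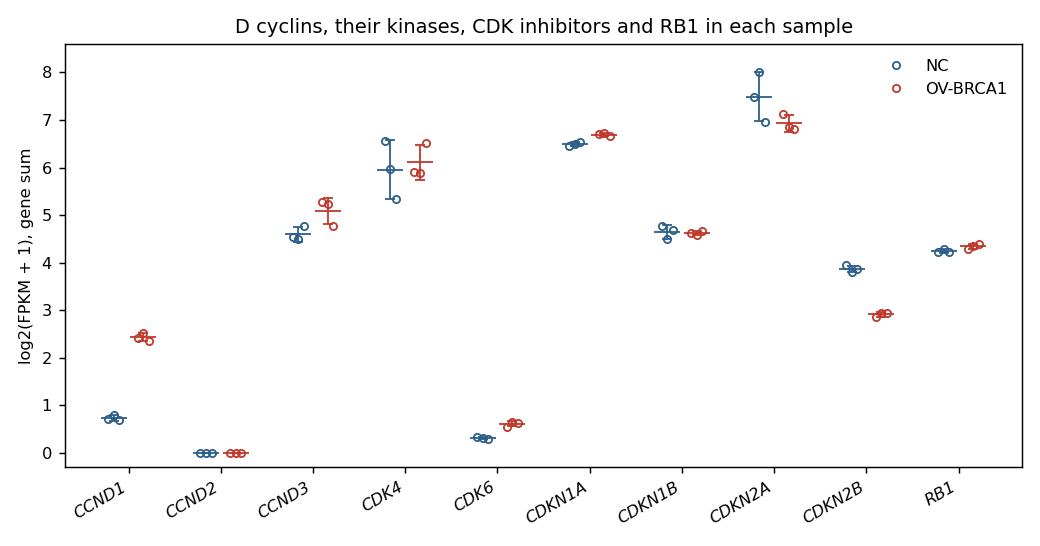
Level of each gene as log2(FPKM + 1) in the 6 samples, with NC in blue and OV-BRCA1 in red. Circles are samples and bars show mean and SD of 3 samples. CCND1 and CDKN2B stand apart between the groups, CDKN2A and CDK4 spread widely within the NC group, and CCND2 lies at 0.

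CCND1, which encodes cyclin D1, the D cyclin that many growth signals induce, was low in the NC group and higher in every OV-BRCA1 sample. Its FPKM was 4.30, 4.74 and 4.13 in the OV-BRCA1 samples against 0.641, 0.744 and 0.601 in the NC samples. The lowest OV-BRCA1 sample lay well above the highest NC sample, and the mean was 6.63 times that of the NC group. CCND1 (ENSG00000110092, chromosome 11, 69641087 to 69654474, plus strand, GRCh38) had a log2 fold change of 1.70 (95% interval 1.48 to 1.91, limma adjusted p = 5.91e-05). The values rest on an estimated 29.9 to 41.6 fragments per NC sample and 220 to 298 per OV-BRCA1 sample, so the NC level is the less precise of the pair. Its log2 fold change was 2.56 on the log2(FPKM + 0.1) scale.

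Most of the CCND1 signal lay in CCND1-201, a transcript of 4307 bases. It stood at 3.85, 4.21 and 3.68 FPKM in the OV-BRCA1 samples against 0.421, 0.50 and 0.328 in the NC samples. CCND1-201 alone had a log2 fold change of 1.80 (limma adjusted p = 0.00261 over 50925 transcripts), with no overlap of the groups. It entered the test through its OV-BRCA1 samples, since in the NC group sample 2 alone reached 0.5 FPKM. Its call is thus not independent of the filter. The call was lost with the replicate number as a block (limma adjusted p = 0.0634). LTO1 overlaps the end of CCND1 on the opposite strand. It stood at 6.65 to 8.68 FPKM in the OV-BRCA1 samples and 7.99 to 10.99 in the NC samples (log2 fold change -0.37, limma adjusted p = 0.102), so it was not called and its mean lay on the other side. Whether the counting used the strand is not given in the sources used here.

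CCND2, which encodes cyclin D2, was listed at 0 in all 6 samples for each of its 4 transcripts. CCND3, which encodes cyclin D3, was the most abundant D cyclin of these cells in both groups. CCND3 (ENSG00000112576, chromosome 6, 41934933 to 42050357, minus strand) stood at 37.7, 36.4 and 26.1 FPKM in the OV-BRCA1 samples against 22.2, 21.4 and 26.5 in the NC samples. OV-BRCA1 sample 3 lay just below NC sample 3, so the groups overlapped through these libraries alone. The log2 fold change was 0.49 (95% interval 0.11 to 0.86) and narrowly missed the criterion (limma adjusted p = 0.0522). It passed without OV-BRCA1 sample 3 (0.65, adjusted p = 0.0111), with median-of-ratios scaling (adjusted p = 0.0427), with a stricter filter (adjusted p = 0.049) and with fragments weighted by transcript length (0.56, adjusted p = 0.0296). Under the other 10 alternatives it was not called. Among these were no filter (limma adjusted p = 0.121), the replicate number as a block (0.114) and the most abundant transcript (0.29).

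The drop in OV-BRCA1 sample 3 was also seen in CCND3-204 and not in CCND3-203. CCND3-204 stood at 24.1, 21.6 and 10.8 FPKM in the OV-BRCA1 samples and at 11.3, 10.9 and 13.96 in the NC samples. CCND3-203, the other main transcript, was steadier, at 10.0, 10.1 and 10.8 FPKM against 7.59, 5.85 and 5.49, with no overlap of the groups (log2 fold change 0.64, limma adjusted p = 0.0644).

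Because CCND3 was so much higher than CCND1, cyclin D1 mRNA remained the smaller part of the D cyclin FPKM in both groups. CCND1 made up 10.2%, 11.5% and 13.6% of the summed D cyclins in the OV-BRCA1 samples against 2.80%, 3.36% and 2.22% in the NC samples. All OV-BRCA1 samples lay above all NC samples, with a difference of 9.01 percentage points (two-sided exact permutation p = 0.1, the smallest that 3 against 3 samples can give). With the most abundant transcript of each gene the difference was 15.1 percentage points.

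Both kinases were measured, at levels far apart. CDK6 (ENSG00000105810, chromosome 7, 92604921 to 92836594, minus strand) was low, at 0.462, 0.561 and 0.550 FPKM in the OV-BRCA1 samples and 0.249, 0.240 and 0.213 in the NC samples. The groups did not overlap, and the mean of the OV-BRCA1 group was 2.24 times that of the NC group (two-sided exact permutation p = 0.1). Only 2 samples reached an FPKM of 0.5, which left CDK6 out of the test. Its transcripts are long, so the values still rest on an estimated 69.2 to 74.7 fragments per OV-BRCA1 sample and 31.7 to 45.1 per NC sample. In the fit without a filter on low values its log2 fold change was 0.30 (limma adjusted p = 0.0158).

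CDK4 (ENSG00000135446, chromosome 12, 57747727 to 57756013, minus strand) was the main D-type kinase in both groups. Its FPKM was 58.9, 58.4 and 91.0 in the OV-BRCA1 samples against 93.9, 61.3 and 39.4 in the NC samples. The samples interleaved, and the log2 fold change of 0.15 had a 95% interval from -0.65 to 0.95 (limma adjusted p = 0.754), so neither a rise nor a fall of moderate size could be detected. Its sign turned without OV-BRCA1 sample 3 (-0.06) or without NC sample 3 (-0.16).

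The high CDK4 values of OV-BRCA1 sample 3 and NC sample 1 both went with a high value of the short transcript CDK4-211, and other transcripts shifted too. CDK4-211, of 769 bases, stood at 39.4 FPKM in OV-BRCA1 sample 3 and 42.5 in NC sample 1, and at 5.03 to 5.83 in the other 4 samples. CDK4-202, of 1650 bases, stood at 17.5 FPKM in OV-BRCA1 sample 3 and 17.45 in NC sample 2, and at 0 to 2.17 in the others. CDK4-201 stood at 19.3 FPKM in OV-BRCA1 sample 3, against 43.0 and 42.4 in OV-BRCA1 samples 1 and 2. FPKM gives a short transcript a large value for few fragments. When the FPKM of each transcript was multiplied by its length, summed and divided by the length of CDK4-201, an alternative added once the values were known, the OV-BRCA1 samples stood at 49.7, 48.5 and 53.4 and the NC samples at 59.0, 45.1 and 30.3. The OV-BRCA1 samples then lay close together and inside the range of the NC samples. TSPAN31 and MARCH9, which overlap CDK4 on the opposite strand, stood at 4.51 to 6.30 and 4.65 to 5.87 FPKM over all samples.

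The CIP/KIP inhibitors were abundant, and 1 of 2 was called. CDKN1A, which encodes p21 (ENSG00000124762, chromosome 6, 36676460 to 36687339, plus strand), had an FPKM of 103, 104 and 99.8 in the OV-BRCA1 samples and 86.1, 89.8 and 92.2 in the NC samples. The groups did not overlap, and the rise was small, at 0.19 on the log2 scale (95% interval 0.08 to 0.31, limma adjusted p = 0.0204). The call was lost with a single sample left out, that is without OV-BRCA1 sample 1, OV-BRCA1 sample 2, NC sample 1 or NC sample 2 (adjusted p = 0.0547, 0.0606, 0.0617 and 0.0533). CDKN1B, which encodes p27 (ENSG00000111276, chromosome 12, 12715058 to 12722371, plus strand), stood at 23.7, 23.0 and 24.3 FPKM against 26.3, 21.5 and 24.7. The OV-BRCA1 samples lay inside the range of the NC samples, and the 95% interval of the log2 difference ran from -0.22 to 0.17 (limma adjusted p = 0.839). AC008115.3, which lies in an intron of CDKN1B on the same strand, was called lower, at 0.719, 1.07 and 1.01 FPKM against 2.16, 1.43 and 1.85 (log2 fold change -0.54, limma adjusted p = 0.0231).

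Most of the CDKN1A signal was assigned to 3 transcripts of similar length that start at different positions. CDKN1A-208, with the most upstream start, stood at 0, 18.5 and 1.24 FPKM in the OV-BRCA1 samples and at 42.5, 20.6 and 40.0 in the NC samples. For this transcript the groups did not overlap (log2 fold change -3.26). CDKN1A-201 stood at 83.2, 11.2 and 43.3 against 12.0, 12.6 and 14.3, and CDKN1A-203 at 18.3, 72.8 and 53.6 against 29.1, 54.3 and 36.1. In the OV-BRCA1 group each of the 3 varied several-fold while the gene sum stayed within 99.8 to 104 FPKM, in the NC group CDKN1A-201 was steady, and none of the 3 was called (limma adjusted p = 0.167, 0.328 and 0.93). Where the transcript with the highest mean, CDKN1A-203, was taken for the gene, the call was lost (log2 fold change 0.11, adjusted p = 0.912).

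CDKN2B, which encodes the CDK4 and CDK6 inhibitor p15INK4b and is known as a target of TGF-beta signaling, was lower in every OV-BRCA1 sample. CDKN2B (ENSG00000147883, chromosome 9, 22002903 to 22009363, minus strand) had an FPKM of 6.21, 6.72 and 6.62 in the OV-BRCA1 samples and 14.3, 12.9 and 13.5 in the NC samples. The spread within each group was far smaller than the gap between them, and the mean of the NC group was 2.09 times that of the OV-BRCA1 group. CDKN2B fell by 0.96 on the log2 scale (95% interval -1.13 to -0.79, limma adjusted p = 2.24e-04), just short of the fold change that defines a DEG. With a pseudocount of 0.1 it fell by 1.05. The call held under all 14 alternatives.

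Most of the CDKN2B signal lay in CDKN2B-201, a transcript of 3911 bases, at 4.94, 5.14 and 5.58 FPKM against 13.1, 10.7 and 10.8 (log2 fold change -1.004, limma adjusted p = 0.0125). The groups did not overlap, but the call for this transcript was lost without OV-BRCA1 sample 1, OV-BRCA1 sample 2 or NC sample 3 (limma adjusted p = 0.0519, 0.0548 and 0.0509). It was also lost with the replicate number as a block (limma adjusted p = 0.12). Of the 36 transcripts of the 10 genes that were tested, CDKN2B-201 and CCND1-201 were the ones called, where 5.47% of all transcripts tested were called, 2.85% higher and 2.63% lower. CCND1-201 entered through its OV-BRCA1 samples only and was not tested with the filter of 1 FPKM in all 6 samples. CDKN2A and CDKN2B are related genes and share 70 stretches of 31 bases, which is 1.73% of those of CDKN2B. No such stretch was shared by any other pair of the 10 genes.

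CDKN2A (ENSG00000147889, chromosome 9, 21967753 to 21995301, minus strand) had the highest FPKM of the 10 genes in all 6 samples. It encodes p16INK4a and, from another first exon and in another reading frame, p14ARF, which binds the MDM2 protein. Its FPKM was 139, 115 and 111 in the OV-BRCA1 samples against 179, 257 and 124 in the NC samples. NC sample 3 lay inside the range of the OV-BRCA1 samples. The log2 fold change of -0.56 was not called (95% interval -1.17 to 0.06, limma adjusted p = 0.136). Without NC sample 3 it was -0.82 and passed (adjusted p = 0.0266), and without NC sample 2 it was -0.30 (adjusted p = 0.27).

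The files give 14 transcripts of CDKN2A, which were grouped by their first exon in GENCODE. The 2 transcripts with the ARF first exon summed to 102, 73.3 and 73.0 FPKM in the OV-BRCA1 samples and 148, 225 and 86.0 in the NC samples. Nearly all of that spread was in CDKN2A-210, a transcript of 748 bases, which stood at 31.9, 8.52 and 5.83 FPKM against 73.0, 165 and 16. CDKN2A-214, the ARF transcript of 1283 bases, was steady, at 69.6, 64.7 and 67.2 FPKM against 74.6, 60.8 and 70.0 (log2 fold change -0.02, limma adjusted p = 0.913). With CDKN2A-214 taken for the gene the log2 fold change was -0.02 (adjusted p = 0.881).

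The 4 transcripts with the p16 first exon summed to 23.0, 27.1 and 21.6 FPKM in the OV-BRCA1 samples and 17.1, 13.8 and 22.8 in the NC samples. OV-BRCA1 sample 3 lay below NC sample 3, and the other OV-BRCA1 samples lay above all NC samples. The main one, CDKN2A-201, stood at 20.7, 23.3 and 18.3 FPKM against 12.5, 8.18 and 17.3, without overlap but also without a call (log2 fold change 0.72, limma adjusted p = 0.196). CDKN2A-208, a lower one of these, went the other way at 1.71, 2.29 and 2.31 FPKM against 2.97, 3.77 and 4.10, also without overlap and without a call (log2 fold change -0.57, limma adjusted p = 0.12). CDKN2A-203 too had the lower mean in the OV-BRCA1 samples (1.03 against 1.49 FPKM). The other tested transcripts of CDKN2A, namely CDKN2A-209, CDKN2A-211, CDKN2A-207, CDKN2A-206 and CDKN2A-204, had means of at most 6.43 FPKM in either group and were not called. NC sample 2 had both the lowest CDKN2A-201 and the highest CDKN2A-210. The transcripts share their second exon, so the division between p16 and ARF rests on the fragments at the first exons. In every sample the transcripts with the ARF first exon held more FPKM than those with the p16 first exon.

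**Figure D2:**
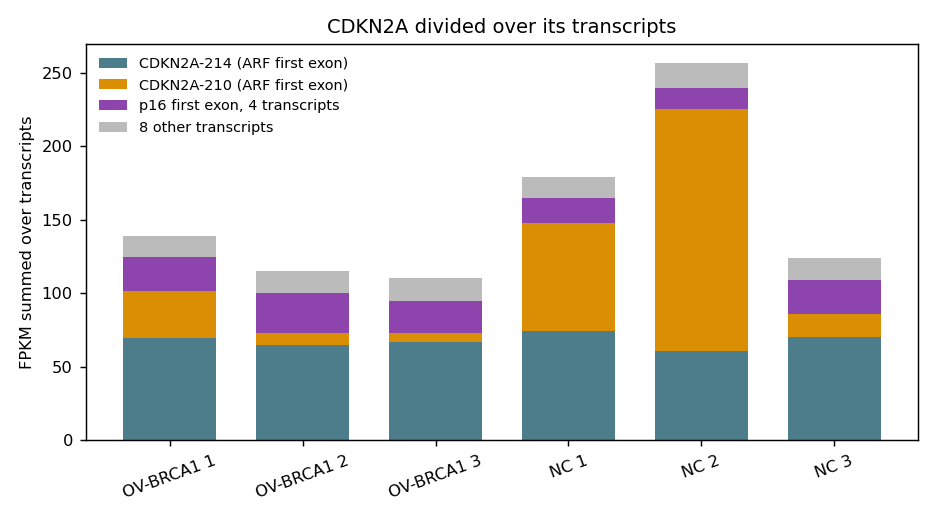
FPKM of CDKN2A in each sample as stacked bars from 0, divided into CDKN2A-214 and CDKN2A-210 (both with the ARF first exon), the 4 transcripts with the p16 first exon and 8 other transcripts. CDKN2A-214 is of similar height in all samples, between 60.8 and 74.6 FPKM, whereas CDKN2A-210 runs from 5.83 to 165 FPKM.

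The antisense RNA CDKN2B-AS1 overlaps both CDKN2A and CDKN2B on the opposite strand and is known for its part in their silencing by Polycomb proteins. It stood at 1.93, 0.803 and 0.962 FPKM in the OV-BRCA1 samples and 3.29, 2.41 and 2.45 in the NC samples. The groups did not overlap, and it was called lower (log2 fold change -0.76, limma adjusted p = 0.0306). Reads of the antisense RNA and of CDKN2B cannot be told apart where a count does not use the strand, and their part in each other's values was not tested. Of 5 neighbours of the locus 4 were tested, and CDKN2B-AS1 was the only one called (median -0.04). MTAP, the next coding gene, had a log2 fold change of 0.33 (limma adjusted p = 0.434), KLHL9 of -0.13 (0.285) and IFNE of 0.06 (0.687).

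Sequence upstream of the start was read from RefSeq (GRCh38.p14), which held entries for 8 of the 10 genes, all but CCND1 and CCND2. It is shown for CDKN2B and CDKN1A, the called genes with an entry, and for CCND3, the D cyclin at the edge of the criterion, over the 190 bases that run from 250 to 61 bases before a RefSeq start. Each is written 5′ to 3′ on the strand of the gene, and capitals mark GGGCGG on either strand, the core of the site bound by the factor SP1. The windows are chr9:22009366-22009555 on the minus strand for CDKN2B, chr6:36678464-36678653 on the plus strand for CDKN1A and chr6:41941869-41942058 on the minus strand for CCND3.
CDKN2B: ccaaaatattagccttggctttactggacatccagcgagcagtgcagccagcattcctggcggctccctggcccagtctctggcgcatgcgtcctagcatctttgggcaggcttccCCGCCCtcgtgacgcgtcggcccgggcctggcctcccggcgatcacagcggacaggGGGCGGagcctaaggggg
CDKN1A: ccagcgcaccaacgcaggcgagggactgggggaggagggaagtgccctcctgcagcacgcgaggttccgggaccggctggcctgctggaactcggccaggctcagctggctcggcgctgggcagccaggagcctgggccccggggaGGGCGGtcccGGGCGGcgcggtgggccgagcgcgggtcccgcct
CCND3: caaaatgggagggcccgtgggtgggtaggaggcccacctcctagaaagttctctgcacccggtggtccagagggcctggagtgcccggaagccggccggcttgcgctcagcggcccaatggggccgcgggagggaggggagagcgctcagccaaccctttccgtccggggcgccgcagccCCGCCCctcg
GGGCGG occurred 2 times in the window of CDKN2B, 2 times in that of CDKN1A and 1 time in the CCND3 window shown, on either strand. The window of another RefSeq start of CCND3, chr6:41939266-41939455 on the minus strand, held it 0 times. The same letters occurred in 33.0% of the 35116 windows of this length in the table. The E2F letters TTTNNCGC (4.55% of windows), the AP-1 letters TGANTCA (4.98%) and the CRE letters TGACGTCA (0.803%), searched on both strands, were in none of these 4 windows. These matches describe the letters of the windows and not the binding of a factor.

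RB1, which encodes the protein that the D cyclin kinases phosphorylate, was expressed at an even level. RB1 (ENSG00000139687, chromosome 13, 48303726 to 48599436, plus strand) stood at 18.4, 19.4 and 19.9 FPKM in the OV-BRCA1 samples and 17.6, 18.5 and 17.8 in the NC samples. OV-BRCA1 sample 1 lay just below NC sample 2, and the other OV-BRCA1 samples lay above the NC group. The log2 fold change was 0.10 (95% interval -0.04 to 0.24, limma adjusted p = 0.233). Nearly all of its FPKM lay in the full-length transcript RB1-201, at 16.7 to 19.1 FPKM in the 6 samples. RCBTB2, which overlaps RB1 on the opposite strand, stood at 1.25 to 1.40 FPKM.

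**Figure D3:**
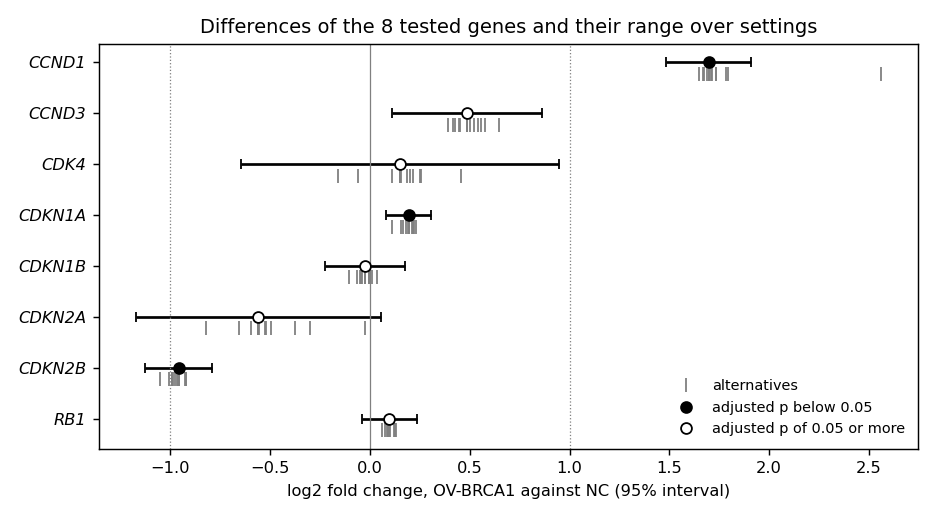
Log2 fold change of the OV-BRCA1 group against the NC group on the log2(FPKM + 1) scale with its 95% interval, for the 8 genes that were tested. Filled circles passed the adjusted p-value, grey ticks give the value under each alternative setting, and dotted lines mark a log2 fold change of 1 in either direction. CCND1 lies above 1 under the 13 alternatives in which it was fitted, and the interval of CDK4 spans 0 widely.

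CCND1 was then read against CDKN2A and RB1 in the same sample, which compares FPKM values per length. The CDKN2A sum is mostly transcripts with the ARF first exon, which do not encode p16INK4a (mean 82.6 FPKM in the OV-BRCA1 samples and 153 in the NC samples). Transcripts with the p16 first exon had the higher mean in the OV-BRCA1 samples (23.9 against 17.9), and CCND1 was not set against them alone. The log2 ratio of CCND1 to CDKN2A was -5.01, -4.60 and -4.75 in the OV-BRCA1 samples against -8.13, -8.43 and -7.69 in the NC samples. All OV-BRCA1 samples lay above all NC samples, with a difference in means of 3.29 (two-sided exact permutation p = 0.1). In both groups CCND1 remained far below CDKN2A, at 0.0310, 0.0411 and 0.0373 of its FPKM in the OV-BRCA1 samples. The log2 ratio of CCND1 to RB1 was -2.10, -2.04 and -2.27 in the OV-BRCA1 samples and -4.78, -4.63 and -4.89 in the NC samples. Here too the groups did not overlap (difference 2.63, two-sided exact permutation p = 0.1), and CCND1 stood at 0.233, 0.244 and 0.207 of the RB1 level in the OV-BRCA1 samples. Both ratios, like the CCND1 share of the D cyclins, contain the CCND1 difference given above and are not a separate result beside it.

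Inhibitors were also set against the genes of their partners. The CDKN2A sum used here is mostly transcripts with the ARF first exon (mean 82.6 FPKM in the OV-BRCA1 samples and 153 in the NC samples), which do not encode p16INK4a, whereas those with the p16 first exon had the higher mean in the OV-BRCA1 samples (23.9 against 17.9). The log2 ratio of CDKN2A plus CDKN2B to CDK4 plus CDK6 was 1.29, 1.05 and 0.36 in the OV-BRCA1 samples and 1.04, 2.13 and 1.80 in the NC samples, with overlap (difference -0.76, two-sided exact permutation p = 0.3). With the most abundant transcript of each gene the groups also overlapped (difference -0.35, two-sided exact permutation p = 0.4). With single samples left out, the difference in gene sums ran from -1.06 without NC sample 1 to -0.49 without OV-BRCA1 sample 3. Without NC sample 1 the groups did not overlap (two-sided exact permutation p = 0.1). With fragments weighted by transcript length the groups separated, at 1.29, 1.15 and 0.97 against 1.37, 2.06 and 1.96 (difference -0.66, two-sided exact permutation p = 0.1). The log2 ratio of CDKN1A plus CDKN1B to the D cyclins was 1.59, 1.63 and 2.04 in the OV-BRCA1 samples and 2.30, 2.33 and 2.11 in the NC samples. Every OV-BRCA1 sample lay below every NC sample, OV-BRCA1 sample 3 by a narrow margin (difference -0.49, two-sided exact permutation p = 0.1). With the most abundant transcript of each gene the groups overlapped (two-sided exact permutation p = 0.3).

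**Figure D4:**
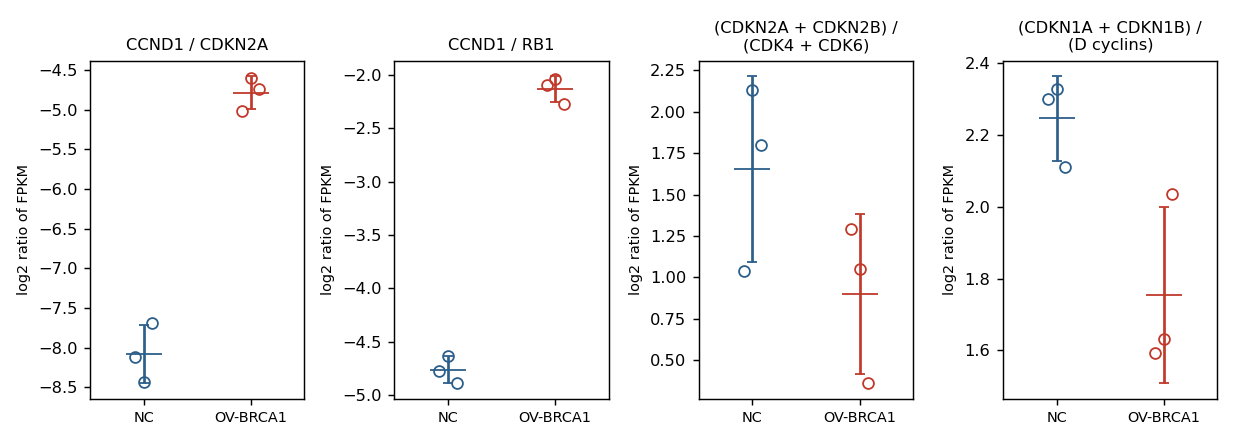
Log2 ratios of FPKM per sample in 4 panels, with samples as circles and mean and SD of 3 samples as bars. The ratios of CCND1 to CDKN2A and to RB1 lie apart between the groups by 3.29 and 2.63, the ratio of CDKN2A plus CDKN2B to CDK4 plus CDK6 overlaps, and the vertical axes differ between panels and do not start at 0.

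The genes around these 10 in the pathway were described by lists, whose counts are read beside the 35.3% of all genes called and their median log2 fold change of -0.04. In the list of other CDK inhibitors 3 of 4 genes were lower and none was higher (median -0.48). CDKN1C, which encodes p57 of the CIP/KIP family, fell from 7.53 ± 0.223 to 2.11 ± 0.455 FPKM (SD, n = 3 each, log2 fold change -1.46, limma adjusted p = 3.26e-04) and was a DEG. CDKN2C, which encodes p18INK4c, fell by 0.53 on the log2 scale (limma adjusted p = 0.00926), and CDKN3, a phosphatase of CDKs rather than a stoichiometric inhibitor, fell by 0.43 (0.00608). CDKN2D, the remaining INK4 gene, was not called (log2 fold change -0.16, limma adjusted p = 0.457). CDKN2B was thus lower along with CDKN1C and CDKN2C, while CDKN1A was higher.

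Of 12 genes of the RB family and E2F list, 1 was higher, 4 were lower and 7 were not called (median -0.02). RBL2, which encodes the RB relative p130 of quiescent cells, fell from 25.1 ± 0.597 to 14.9 ± 0.309 FPKM (log2 fold change -0.71, limma adjusted p = 2.31e-04). E2F2, an activating E2F, fell by 0.70 (0.00102), and E2F5, which partners with p130, rose by 0.79 (0.00208). None of the list was a DEG.

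The E2F target genes of S phase were called in both directions, with 5 of 22 higher, 6 lower and 11 not called (median 0.03). CDC6, which loads the replicative helicase at origins, rose from 26.1 ± 0.434 to 38.8 ± 1.28 FPKM (log2 fold change 0.55, limma adjusted p = 5.24e-04), DTL, which targets CDT1 for destruction, rose by 0.69 (0.00134), and ORC1, a subunit of the origin recognition complex, by 0.41 (0.00302). PCNA, the sliding clamp of DNA replication, was among the lower ones (log2 fold change -0.52, limma adjusted p = 0.00762).

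Among 15 other cyclins, CDKs, CDC25 phosphatases and related kinases, 2 were higher, 7 were lower and 6 were not called (median -0.35). The 7 lower genes were CCNB1, CCNB2, CDK1, CDC25B, CDC25C, WEE1 and PKMYT1. CCNB1, the mitotic cyclin B1, fell from 103 ± 4.76 to 64.7 ± 2.37 FPKM (log2 fold change -0.66, limma adjusted p = 3.75e-04), the phosphatase gene CDC25B fell by 0.66 (4.54e-04) and CCNB2 by 0.56 (5.08e-04). CCNE2, cyclin E2, and CDC25A, the phosphatase that activates CDK2, were the higher ones (log2 fold changes 0.27 and 0.76, limma adjusted p = 0.0294 and 0.0175), and CCNE1 was not called (-0.03, adjusted p = 0.799).

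Of 20 genes of transcription factors known to act on CCND1, 19 were tested, with 3 higher, 4 lower and 12 not called (median -0.04). Of the FOS and JUN genes in the list, FOS, JUNB and JUND were lower, FOSL1 was higher, and JUN and FOSL2 were not called. FOS fell from 312 ± 15.2 to 70.6 ± 2.33 FPKM (log2 fold change -2.13, limma adjusted p = 3.88e-06) while FOSL1 rose by 2.14 (3.37e-04), and both were DEGs. EGR1 fell by 0.63 (1.19e-04). MYC stood at a mean of 10.2 FPKM against 4.21 and was not called (log2 fold change 1.32, limma adjusted p = 0.287), and CTNNB1, which encodes beta-catenin, had a log2 fold change of -0.01 (0.808).

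Of 17 genes that act on the inhibitors, 2 were higher, 3 lower and 12 not called (median 0.22). The higher ones were SMAD3 and BMI1 (log2 fold changes 0.44 and 0.23, limma adjusted p = 0.0107 and 0.0304). ID1, which opposes the activation of CDKN2A, fell by 0.57 (limma adjusted p = 3.05e-04), KLF4, an activator of CDKN1A, by 0.78 (3.72e-04) and ZBTB17, which encodes the MIZ1 activator of CDKN1A and CDKN2B, by 0.55 (0.00546). MDM2, whose protein is bound by p14ARF, was not called (log2 fold change 0.19, limma adjusted p = 0.144). Of 13 tested genes for turnover and assembly of D cyclins and inhibitors, 2 were higher and 2 lower (median 0.12). CKS1B, the cofactor of SKP2 in the destruction of p27, rose by 0.41 (limma adjusted p = 9.92e-04) and HSP90AB1, a chaperone of CDK4, by 0.41 (6.95e-04), while RNF123, a ligase for p27, fell by 0.50 (0.0041).

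**Figure D5:**
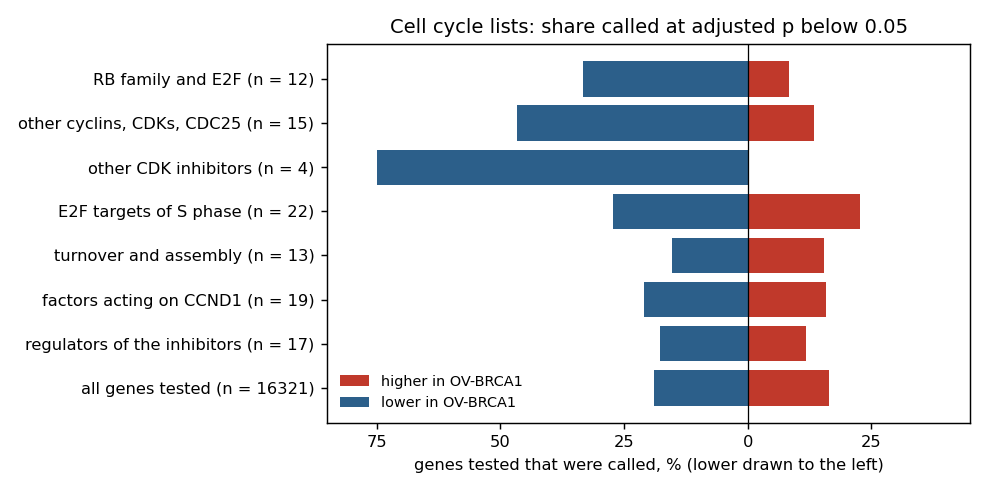
Share of the tested genes of each list that were called higher (to the right, red) or lower (to the left, blue) at an adjusted p-value below 0.05, in percent, with all 16321 tested genes at the bottom. The list of other CDK inhibitors lies to the left with 3 of 4 genes, and the E2F targets of S phase lie on both sides with 5 and 6 of 22.

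Of 9 neighbours of CCND1 on chromosome 11, 4 were tested, with 1 higher and 1 lower (median -0.14). Besides LTO1, FADD had a log2 fold change of 0.33 (limma adjusted p = 0.0102), CTTN of -0.32 (0.0124) and PPFIA1 of 0.04 (0.722), all far below the 1.70 of CCND1.

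The identity of the cells was checked with marker lists. Of 10 squamous epithelial markers 5 had a median FPKM of at least 1, namely KRT17, KRT8, KRT18, SFN and EPCAM, while KRT5 was near 0 and TP63 and KRT14 stayed below 1. Their sum ran from 1717 to 1862 FPKM in the OV-BRCA1 samples and from 2066 to 2111 in the NC samples. KRT17 and SFN were lower in every OV-BRCA1 sample, KRT17 at 1014, 953 and 1131 FPKM against 1442, 1425 and 1435 and SFN at 132.8, 122.8 and 119.5 against 135.1, 133.0 and 134.4, whereas KRT8, KRT18, EPCAM, KRT6A, KRT14 and TP63 were higher in every OV-BRCA1 sample. Of 8 fibroblast markers 7 had a median below 0.1 FPKM, the exception being COL1A1, and their sum ran from 3.35 to 4.05 in the OV-BRCA1 samples and from 6.20 to 6.75 in the NC samples. The immune list summed to 38.7 to 44.4 FPKM against 23.0 to 24.5, with 4 of 8 genes at a median of at least 1 (CD14, CD68, CD74 and HLA-DRA) and with the defining markers PTPRC and LYZ at or near 0. CD14 was lower in every OV-BRCA1 sample, at 9.04, 6.65 and 7.69 FPKM against 20.4, 17.8 and 19.9, whereas CD68, CD74 and HLA-DRA were higher in every one. The endothelial list of 4 genes summed to 0.761 to 1.45 against 0.629 to 0.788 FPKM, with VWF, KDR and CDH5 at or near 0. The squamous, fibroblast and immune sums did not overlap between the groups, the endothelial sums did, and their part in the results was not tested.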

How the data were processed

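Messenger RNA of 6 SiHa samples was sequenced. The values per transcript are FPKM as deposited. Adapter-containing and low-quality reads had been filtered out beforehand. FastQC, HISAT2 and hg38 are named in the submitters' processing notes. The quantification tool, its annotation and its use of strand are not given in the sources used here. The 10 genes and all lists were chosen with earlier results of these data known. Lists were written from general knowledge.

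FPKM was summed per gene, with names and positions from GENCODE release 29 (198868 of 199167 transcripts). Groups were compared with limma 3.58.1 in R 4.3.3 (trend, no robust estimation) on log2(FPKM + 1) with Benjamini-Hochberg adjustment, for genes or transcripts that reached 0.5 FPKM in 3 or more samples. Alternatives were a pseudocount of 0.1, no filter, a filter of 1 FPKM in all 6 samples, scaling by median of ratios or to nuclear protein-coding genes, a replicate block, each sample left out, the most abundant transcript and, added once values were known, length-weighted sums. Ratios were tested with an exact permutation test. The text names the 10 genes, BRCA1, tested genes that overlap them, tested neighbours and from each list the 3 genes whose adjusted p-value was smallest. PCNA, CDKN2D, CCNE1, CCNE2, CDC25A, MYC, CTNNB1, MDM2, JUN, JUNB, JUND, FOSL2, SMAD3 and BMI1 were added to these once their values were known, as was the full set of lower genes among the other cyclins and CDKs. Depth was estimated from 14216 genes of 1 transcript each, 600 to 5000 bases long, where 34.1% to 38.0% of low values lay within 0.1 of a whole fragment, so whole reads were not recovered. Estimated fragments cover counting error only. Tested on simulated data for 15958 genes, the fit recovered 85 of 96 genes changed by 1 on the log2 scale and 93 of 94 changed by 2, and called 9 unchanged genes. Python 3.11.15 was used for tables and figures.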

Additional observations from a re-analysis of the deposited data

How the results depend on the processing

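CCND1 and CDKN2B kept direction and call under all alternatives run, except that CCND1 could not be fitted with the filter of 1 FPKM in all 6 samples, with log2 fold changes of 1.65 to 2.56 and of -1.05 to -0.92. RB1, CDK4 and CDKN1B were called under none, CCND3 was called under 4 of 14, CDKN2A under 1 of 14, and the CDKN1A call was lost under 6 of 14. The sign of CDK4 turned when single samples were left out (range -0.16 to 0.46), and that of CDKN1B turned with median-of-ratios scaling (0.0109) and when single samples were left out (-0.10 to 0.0362). The number of genes called among the 10 was 2 to 4 over all alternatives and 2 to 4 with single samples left out. The number of their transcripts called was 1 to 2 with single samples left out. Over all genes, 5764 were called, 3291 with the most abundant transcript of each gene and 6625 with length-weighted sums, an alternative added once the values were known. The balance of calls depended on the scaling, with 2674 higher and 3090 lower as reported, 2957 and 2773 with median-of-ratios scaling, and 2366 and 3475 with scaling to nuclear protein-coding genes. With a pseudocount of 0.1 the DEGs numbered 1280 in place of 651.

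Replicate numbers are in both groups but did not pair the samples, since deviations of same-numbered samples correlated at -0.0244, 0.025 and 0.0136 over genes and not every sample correlated best with its own number. With the replicate number as a block, 4595 genes were called, 2 of the 10 genes (CDKN1A had an adjusted p = 0.0619 from limma) and 0 of their transcripts, against 2 without the block (CCND1-201 at an adjusted p = 0.0634 and CDKN2B-201 at 0.12). The ratio differences were the same under the block, with an exact sign-flip permutation p = 0.25, the smallest that 3 pairs allow, and p = 0.5 for the ratio of CDKN2A plus CDKN2B to CDK4 plus CDK6. All ratio differences kept their direction under the alternatives run. Values below 1 FPKM, those of CCND1 in the NC group and of CDK6, are limited by depth.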
